A study of Rattus norvegicus with 6 samples.

Results

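The vascular endothelial growth factor (VEGF) family was followed in rat metrial gland as 10 genes: the ligands Vegfa, Vegfb, Vegfc, Vegfd and Pgf, the receptors Flt1, Kdr and Flt4, and the co-receptors Nrp1 and Nrp2. Members were taken by name, as every probe set whose platform annotation gives 1 of these genes and no other, with Figf accepted as the older name of Vegfd. This gave 17 probe sets for 10 of the 14217 genes named on the array, and 0 probe sets that carried a member together with another gene. RNA came from the metrial gland, the maternal tissue behind the placenta that holds natural killer cells, decidual stroma and the spiral arteries that trophoblast invades. Of 6 Affymetrix arrays, 3 were from pregnant rats kept in ambient air (21% oxygen) and 3 from pregnant rats kept at 10.5% oxygen, called hypoxia here. The low oxygen lasted from gestation day 6.5 to gestation day 13.5, when tissue was taken, and no genotype, strain or maternal age is given for either group. Whether the 3 arrays of a group stand for separate animals is not stated, and p-values therefore reflect array-to-array spread that could be technical.

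VEGF ligands are secreted dimers that drive the growth, survival and permeability of vessels. VEGF-A signals mainly through Kdr (VEGFR-2). Flt1 (VEGFR-1) binds VEGF-A, VEGF-B and placental growth factor (Pgf) tightly, signals weakly and is also made in a soluble form that traps ligand. VEGF-C and VEGF-D act through Flt4 (VEGFR-3), best known from lymphatic vessels, while the neuropilins hold ligands and receptors together and also bind class 3 semaphorins. Transcription of Vegfa and Flt1 is known to respond to the hypoxia-inducible factors (HIF), and at the implantation site ligands of the family are made by decidual, natural killer and trophoblast cells.

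After a week at 10.5% oxygen, 1 member rose, the ligand Vegfb, by 1.65-fold, and 0 fell. The test was limma's moderated test over 18625 probe sets with Benjamini-Hochberg adjustment, called at an adjusted p under 0.05. Of the 10 genes, 9 had a probe set above the filter that removes the 40% of probe sets with the lowest means, and the remaining gene, Flt4, fell below it. So 1 of 9 measured genes was higher and 0 were lower, where 4.02% of all tested probe sets were higher and 1.97% lower (5.99% in either direction). At an unadjusted p under 0.05 there were 5 genes, with Vegfb, Vegfc, Pgf and Flt1 higher and Nrp2 lower, against 23.7% of all tested probe sets. The ranges of the 2 groups did not overlap for 3 of the 9 (Vegfb, Vegfc and Nrp2), as was the case for 29.9% of all tested probe sets. Differences lay above 0 for 6 of the 9, against 50.8% of all tested probe sets, and their median was 0.10 on the log2 scale against 0.003 over all tested probe sets. In bulk tissue, fewer cells of a type and less RNA per cell cannot be told apart.

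Promoter windows of 5 members are shown because some genes of the family are known HIF targets, and the core DNA letters of HIF are ACGTG or GCGTG. Each window holds the 250 bases before the annotated start, from RefSeq on build GRCr8, read 5′ to 3′ on the gene's strand. Capitals mark the core letters on either strand, so CACGT and CACGC are the same letters on the opposite strand. Vegfb and Pgf are the ligands with the largest differences here, Vegfa and Kdr the textbook ligand and receptor pair, and Flt1 the receptor they share. The Vegfa window, at chr9:22452604-22452853 on the plus strand, is the first of 2 annotated starts.
Vegfa: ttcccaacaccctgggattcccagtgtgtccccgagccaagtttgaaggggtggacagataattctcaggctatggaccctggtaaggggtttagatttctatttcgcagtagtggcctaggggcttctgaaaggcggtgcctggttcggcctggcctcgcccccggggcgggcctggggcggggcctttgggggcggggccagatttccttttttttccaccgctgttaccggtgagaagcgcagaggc
Vegfb, at chr1:213607153-213607402 on the minus strand: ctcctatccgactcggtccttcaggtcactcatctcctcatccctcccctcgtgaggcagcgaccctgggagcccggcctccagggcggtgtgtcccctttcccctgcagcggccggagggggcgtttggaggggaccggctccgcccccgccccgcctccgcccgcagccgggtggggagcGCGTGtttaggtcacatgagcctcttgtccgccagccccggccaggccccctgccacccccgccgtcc
Pgf, at chr6:110557748-110557997 on the minus strand: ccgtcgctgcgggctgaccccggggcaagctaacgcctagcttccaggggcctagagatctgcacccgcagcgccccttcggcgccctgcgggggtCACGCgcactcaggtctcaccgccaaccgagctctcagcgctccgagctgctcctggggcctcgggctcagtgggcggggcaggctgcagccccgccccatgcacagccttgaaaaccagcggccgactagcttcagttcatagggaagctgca
Flt1, at chr12:12333180-12333429 on the plus strand: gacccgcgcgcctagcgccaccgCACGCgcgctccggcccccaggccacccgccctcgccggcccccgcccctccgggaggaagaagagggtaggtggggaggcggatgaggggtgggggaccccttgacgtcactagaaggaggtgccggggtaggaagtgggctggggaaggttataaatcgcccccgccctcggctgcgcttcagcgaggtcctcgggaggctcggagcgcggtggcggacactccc
Kdr, at chr14:32571813-32572062 on the plus strand: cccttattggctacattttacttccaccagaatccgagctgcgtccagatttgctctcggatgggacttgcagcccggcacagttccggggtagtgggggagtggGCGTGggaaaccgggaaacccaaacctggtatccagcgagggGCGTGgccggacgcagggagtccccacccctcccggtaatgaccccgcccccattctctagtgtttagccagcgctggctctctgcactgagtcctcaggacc
The Kdr window held 2 matches, starting 145 and 103 bases before the start, and Vegfb, Pgf and Flt1 held 1 each, at 68, 154 and 227 bases. Neither Vegfa window held a match. Over the family, 6 of 11 windows had a match (Vegfb, Pgf, Flt1, Kdr, Nrp1 and Nrp2), and 36.7% of all 33469 windows of this length had one. A match in letters is not a bound site, and the lack of one says only that these letters are not in this window.

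**Figure D1:**
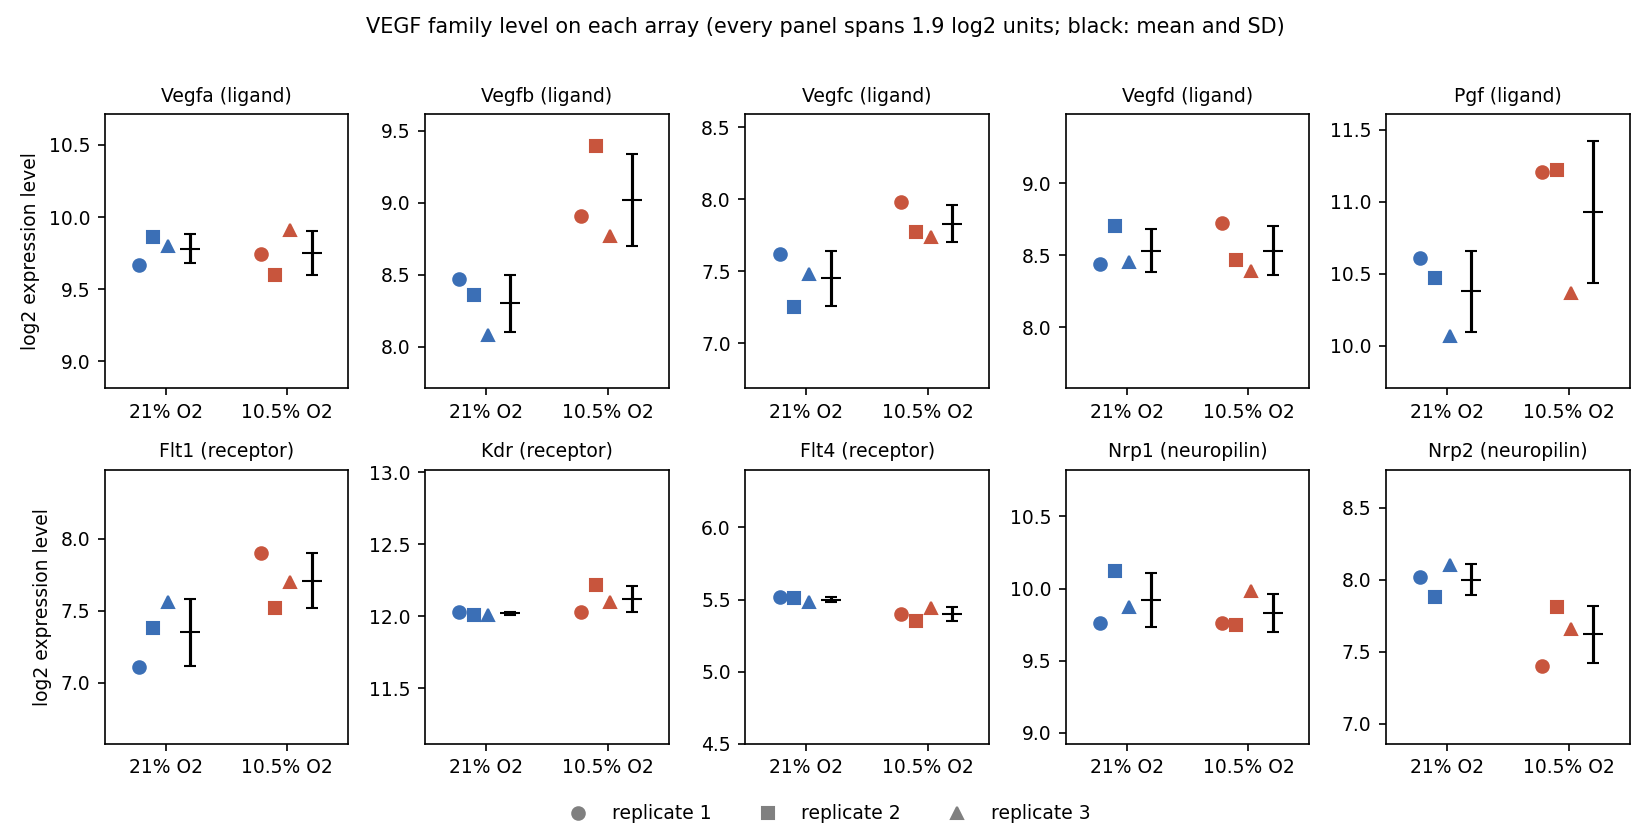
Level of each VEGF family gene on every array, at its brightest probe set. Vertical axes are log2 expression and are set per panel to the same length, colours separate 21% (blue) from 10.5% oxygen (red), symbols are replicates, and black marks are the mean and SD of 3 arrays. The 3 hypoxia arrays of Vegfb sit between 8.77 and 9.39, above all 3 ambient arrays at 8.08 to 8.47, while those of Vegfa, at 9.60 to 9.91, overlap the ambient arrays at 9.67 to 9.86.

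Among the ligands, Vegfb, which binds Flt1 and Nrp1 and is known for its action on heart vessels and fatty acid uptake, stood at 8.47, 8.36 and 8.08 on the ambient arrays and at 8.91, 9.39 and 8.77 on the hypoxia arrays (log2 levels, replicates 1 to 3). All 3 hypoxia arrays lay above all 3 ambient arrays. The group means were 8.30 ± 0.20 and 9.02 ± 0.32 (SD, n = 3 each), a rise of 0.72 (SE 0.17), or 1.65-fold (95% interval 1.26 to 2.15), with a limma adjusted p of 0.0473. The gene has 1 probe set on the array. Its call was lost without any 1 of ambient replicates 1, 2 or 3 (limma adjusted p = 0.077, 0.108 and 0.152) and without hypoxia replicate 1 (0.0963) or hypoxia replicate 2 (0.0788). It was also lost with quantile normalization (0.0531), with no variance trend (0.0593) and when probe sets of a gene were averaged (0.0505), so the adjusted p ranged from 0.0203 to 0.152 over 16 alternatives.

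Pgf, which binds Flt1 and is made by trophoblast, stood at 10.61, 10.47 and 10.07 in ambient and at 11.21, 11.22 and 10.37 in hypoxia. The groups overlap, since hypoxia replicate 3 lay below ambient replicates 1 and 2. The difference was 0.55 (SE 0.235, 95% interval 0.01 to 1.09), or 1.47-fold, and did not pass (limma adjusted p = 0.203). A second probe set read nearly the same values, with a difference of 0.48. Without hypoxia replicate 3 the difference was 0.83 and passed (limma adjusted p = 0.0287), and the adjusted p over 16 alternatives ranged from 0.0215 to 0.449. Pgf thus divided the hypoxia arrays, with replicates 1 and 2 high and replicate 3 at the ambient level.

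Vegfc, the ligand of Flt4 that drives growth of lymphatic vessels, stood at 7.62, 7.25 and 7.48 in ambient and at 7.98, 7.77 and 7.74 in hypoxia. The groups did not overlap. The difference of 0.38 (SE 0.12, 95% interval 0.11 to 0.65), or 1.30-fold, did not pass (limma adjusted p = 0.0987, with a range from 0.0523 to 0.240 over 16 alternatives). Vegfd, the other ligand of Flt4, stood at 8.44, 8.70 and 8.45 in ambient and at 8.72, 8.47 and 8.39 in hypoxia. Its groups had the same mean, 8.53, and differed by 0.001 (95% interval -0.26 to 0.26).

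Vegfa, the main angiogenic ligand and a textbook HIF target, stood at 9.67, 9.86 and 9.80 in ambient and at 9.74, 9.60 and 9.91 in hypoxia. The hypoxia arrays held both the lowest and the highest of the 6 values. A second probe set, whose name ending in _a_at marks probes shared by several transcripts of the gene, read 8.60, 8.51 and 8.61 in ambient and 8.59, 8.23 and 8.55 in hypoxia. Its difference was -0.12 (95% interval -0.36 to 0.12, limma adjusted p = 0.544). At the brighter probe set the difference was -0.02 (SE 0.09, limma adjusted p = 0.900), and its 95% interval corresponds to a ratio between 0.849 and 1.14. Splice forms of Vegfa cannot be told apart here.

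Among the receptors, Flt1 was read by 3 probe sets. The brightest gave 7.11, 7.38 and 7.56 in ambient and 7.90, 7.52 and 7.70 in hypoxia. Only ambient replicate 3 and hypoxia replicate 2 were out of order between the groups. The difference was 0.36 (SE 0.14, 95% interval 0.04 to 0.68), or 1.28-fold, and did not pass (limma adjusted p = 0.169). The other probe sets differed by 0.17 and 0.25, also upward and also not past the threshold (limma adjusted p = 0.3895 and 0.372). The files do not say which probe sets, if any, read the soluble form of Flt1.

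Kdr, the principal signalling receptor, stood at 12.03, 12.01 and 12.01 in ambient and at 12.03, 12.22 and 12.10 in hypoxia. The ambient arrays differed by 0.02 at most, and hypoxia replicate 1 lay at their level. The difference was 0.10 (SE 0.06, 95% interval -0.04 to 0.23, limma adjusted p = 0.359). A second Kdr probe set, left out by the filter, lay at the level of the bacterial control probe sets, which should find no target and reach 5.0 at most. Flt4 stood at 5.52, 5.51 and 5.48 in ambient and at 5.40, 5.35 and 5.44 in hypoxia, above those controls on all 6 arrays but below the filter. Its ranges did not overlap, and without the filter the difference was -0.10 (95% interval -0.29 to 0.08, limma adjusted p = 0.532).

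Both neuropilins had a difference below 0. Nrp2, the partner of Flt4 and of VEGF-C, stood at 8.02, 7.88 and 8.10 in ambient and at 7.40, 7.81 and 7.66 in hypoxia. All 3 hypoxia arrays lay below all 3 ambient arrays. The difference was -0.38 (SE 0.12, 95% interval -0.65 to -0.11), or 1.30-fold lower, and did not pass (limma adjusted p = 0.0998, with a range from 0.060 to 0.264 over 16 alternatives). A second Nrp2 probe set lay below the highest bacterial control on all 6 arrays and has only a bound. Nrp1, which binds VEGF-A and Kdr, stood at 9.76, 10.12 and 9.87 in ambient and at 9.76, 9.75 and 9.98 in hypoxia, with overlapping groups and a difference of -0.08 (95% interval -0.33 to 0.16). Its second probe set differed by -0.12 (limma adjusted p = 0.419).

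**Figure D2:**
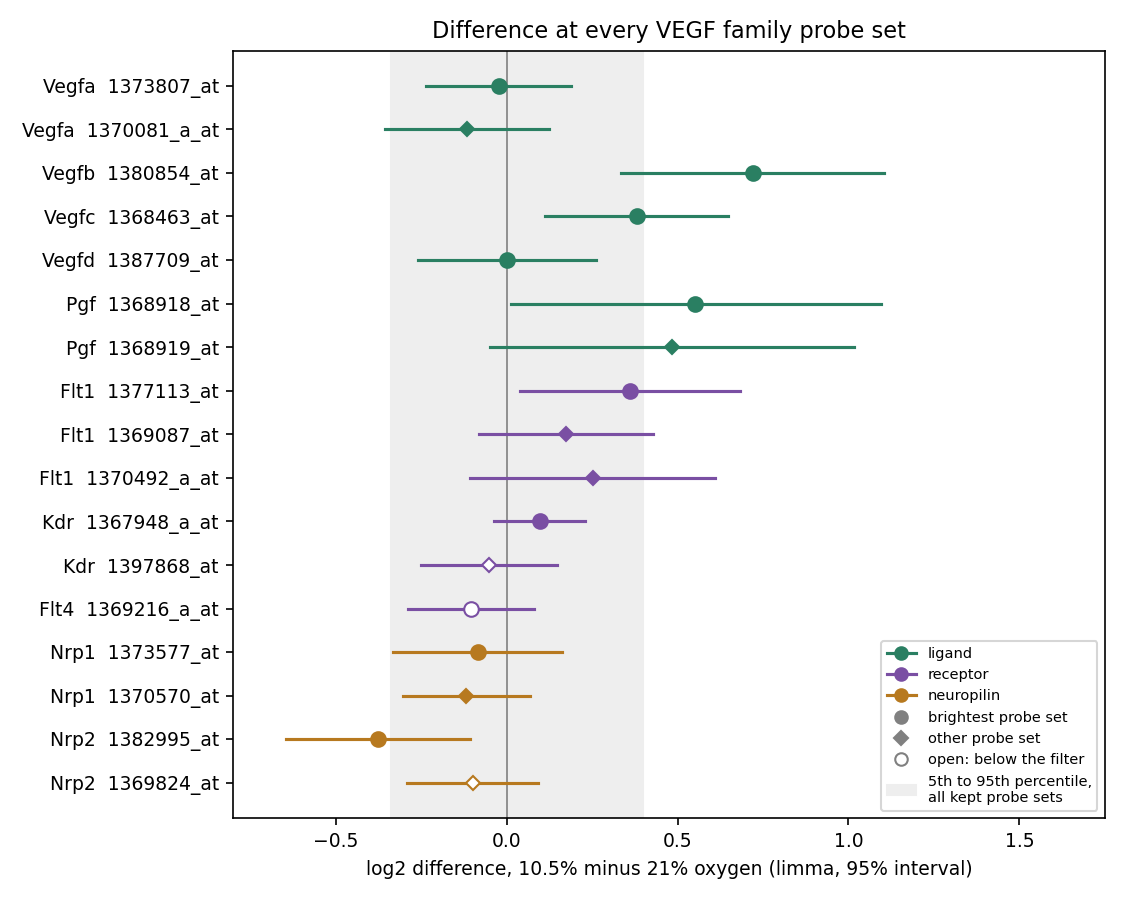
Log2 difference, hypoxia minus ambient, at all 17 probe sets of the family, with the 95% interval of the limma fit. Circles are the brightest probe set of a gene, diamonds its others, open symbols those below the filter, and the grey band holds the middle of all tested probe sets, from -0.34 to 0.40. Vegfb at 0.72 and Pgf at 0.55 and 0.48 lie beyond the band above and Nrp2 at -0.38 just beyond it below.

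Ligands were then set against receptors. By role, the median difference was 0.38 over 5 ligand genes, 0.23 over the 2 measured receptor genes and -0.23 over the 2 neuropilin genes. Levels of different probe sets cannot be compared, since probes differ in how well they bind, but the change of 1 gene minus another on the same array can be. Such values were formed for 10 pairs, and with 3 against 3 arrays the smallest two-sided exact permutation p is 0.1, so no pair could pass. Groups did not overlap for 3 of the 10 pairs, each with an exact permutation p of 0.1, and 0.333 after adjustment over the 10. Taken singly, 29.9% of all tested probe sets did not overlap either. No such share was formed for pairs, so whether 3 of 10 stands out cannot be said.

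The widest of the 3 was Vegfc against its co-receptor Nrp2. Vegfc minus Nrp2 was -0.39, -0.63 and -0.62 on the ambient arrays and 0.58, -0.04 and 0.08 on the hypoxia arrays. The log2 ratio thus shifted by 0.76, or 1.69-fold, toward the ligand (exact permutation p = 0.1). Vegfc minus Flt4, its signalling receptor, went from 1.95 ± 0.19 to 2.44 ± 0.14, a shift of 0.48 toward the ligand (exact permutation p = 0.1). Vegfa minus Flt1 went the other way, from 2.43 ± 0.16 to 2.04 ± 0.19, a shift of -0.38 toward the receptor (exact permutation p = 0.1). Hypoxia replicate 3 at 2.21 came close to ambient replicate 3 at 2.24. This pair used the Flt1 probe set with the largest difference, 0.36 against 0.17 and 0.25 at the others. With the probe set that differed by 0.25 the groups overlap, and with the one at 0.17 they do not. For both Vegfc pairs the separation was fixed by the single genes, since Vegfc was higher and Nrp2 and Flt4 lower on all hypoxia arrays. These pairs restate the single-gene values and are no separate evidence, and Flt4 lies below the filter.

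The pairs that share Flt1 with its other ligands overlapped between the groups. Pgf minus Flt1 was 3.50, 3.09 and 2.51 in ambient and 3.30, 3.70 and 2.67 in hypoxia, a shift of 0.19 (exact permutation p = 0.7). Vegfb minus Flt1 shifted by 0.36 (exact permutation p = 0.4). Vegfa minus Kdr, the main signalling pair, shifted by -0.12 (exact permutation p = 0.6), Vegfa minus Nrp1 by 0.06 (exact permutation p = 0.6) and Vegfd minus Flt4 by 0.11 (exact permutation p = 0.6). Within the receptors, Kdr minus Flt1 shifted by -0.26 (exact permutation p = 0.4), and within the ligands, Pgf minus Vegfa by 0.58 (exact permutation p = 0.3). Over 10 alternatives the signs of these shifts were kept, except for Pgf minus Flt1 (2 turned) and for Vegfa minus Kdr and Vegfa minus Nrp1 (1 each).

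**Figure D3:**
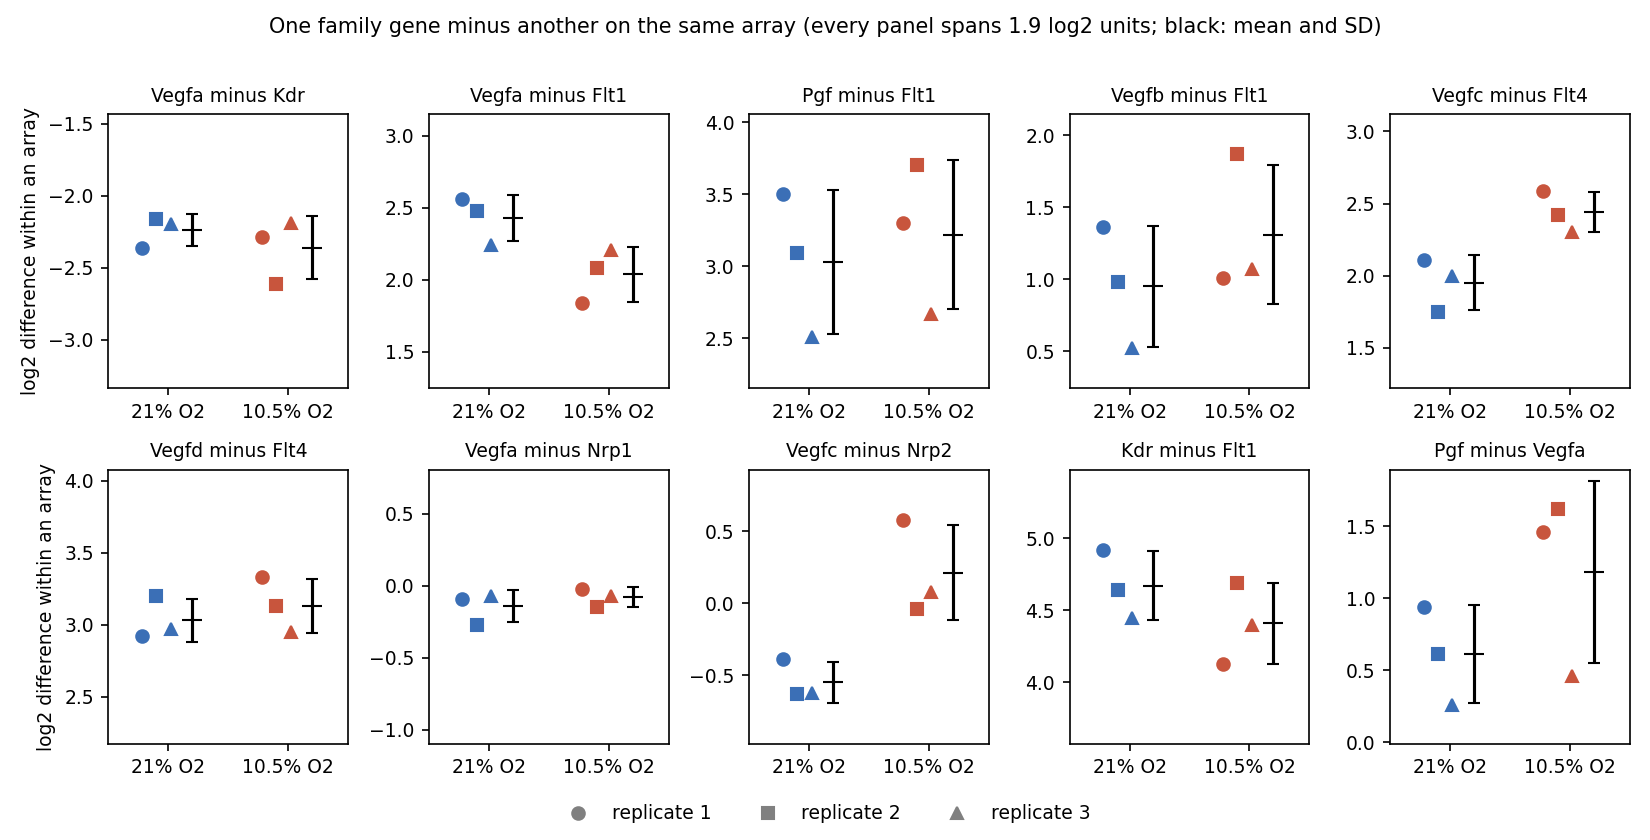
One family gene minus another on the same array, for the 10 pairs compared. Vertical axes are log2 differences within an array and are set per panel to the same length, blue is 21% and red 10.5% oxygen, symbols are replicates, and black marks are the mean and SD of 3 arrays. Vegfa minus Flt1, Vegfc minus Flt4 and Vegfc minus Nrp2 are the panels in which the groups do not overlap, at the brightest probe set of each gene. No pair could pass, since the smallest exact permutation p is 0.1. Flt4 lies below the filter, so the panels with Flt4 rest on a low signal.

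Endothelial cells carry the receptors of the family, so other endothelial genes were counted beside them. Of 21 measured endothelial markers 16 rose and 0 fell, with a median difference of 0.50, against a difference of 0.10 for Kdr and -0.08 for Nrp1. Vwf rose by 1.20, Tie1 by 0.69, Ptprb by 0.63 and Ramp2 by 0.48. Nos3, also called, had an ambient mean of 5.63, under the filter cut of 5.74, and was kept only through its hypoxia arrays (mean 6.29). The 5 markers that did not pass were Esam (0.42), Emcn (0.24), Pecam1 (0.24), Erg (0.21) and Sox7 (-0.20). Kdr and Nrp1 lie inside the spread of single endothelial markers only through Sox7, since every other marker had a higher difference than either. The count of 16 became 10, 6 and 7 when ambient replicates 1, 2 and 3 were left out in turn, and 6 and 7 when hypoxia replicates 1 and 2 were. Calls over all tested probe sets dropped as well, from 5.99% to 2.88%, 1.85% and 1.43% without ambient replicates 1, 2 and 3 and to 2.42% and 2.61% without hypoxia replicates 1 and 2, and the losses given for other lists are to be read against these shares. All 21 markers lay above the bacterial controls on some array, and their summed signal ranged from 12.65 to 12.80 in ambient and from 13.13 to 13.25 in hypoxia (log2 of the sum).

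Each receptor and neuropilin was also set against the mean of these 21 markers on the same array, a comparison added after the data were seen. Kdr minus the endothelial mean was 4.05, 4.22 and 4.09 in ambient and 3.57, 3.78 and 3.78 in hypoxia, a shift of -0.41. Flt4 shifted by -0.61, Nrp1 by -0.59 and Nrp2 by -0.88, and in all 3 the groups did not overlap. Flt1 alone of the 5 overlapped, with a shift of -0.15 (exact permutation p = 0.5). For the other 4 the exact permutation p was 0.1, the smallest possible, and 0.125 after adjustment over the 5. The marker mean itself rose by 0.51 without overlap of the groups, so a gene with no change would shift down by that much. Kdr, Nrp1 and Flt4 by themselves differed by 0.10, -0.08 and -0.10, so their shifts are mostly the rise of the markers. Flt4 and Nrp2, already lower on all hypoxia arrays, could not have overlapped. No shift could pass, single markers themselves differed by -0.20 (Sox7) to 1.20 (Vwf), and Flt4 lies below the filter. Which cells of this mixed tissue made the receptor and neuropilin RNA was not measured, so a shift cannot be read as a change per endothelial cell. Over 9 alternatives the shift of Kdr ranged from -0.45 to -0.30.

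**Figure D4:**
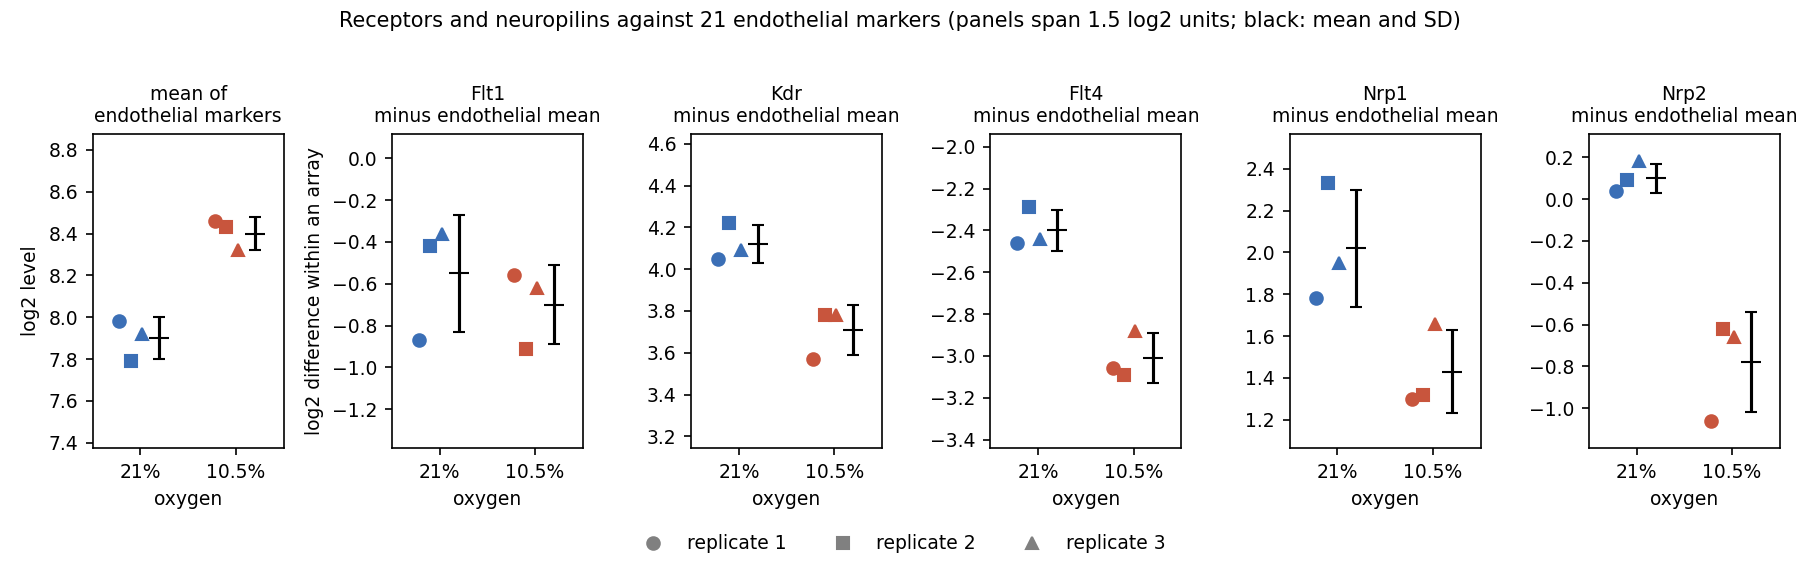
The mean log2 level of 21 endothelial markers (left panel) and each receptor or neuropilin minus that mean on the same array. Vertical axes (log2) are set per panel to the same length, blue is 21% and red 10.5% oxygen, symbols are replicates, and black marks are the mean and SD of 3 arrays. The marker mean is higher on all hypoxia arrays (8.40 ± 0.08 against 7.90 ± 0.10), and the values for Kdr, Flt4, Nrp1 and Nrp2 are lower on all of them. Because the marker mean rises, a gene with no change would also be lower here.

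Markers of other cell types moved with the groups as well, where over all tested probe sets 4.02% were higher and 1.97% lower. Of 17 measured trophoblast markers 13 rose and 0 fell (Prl7a3 by 3.64, Plac1 by 2.16, Cdkn1c by 1.54 and Krt7 by 1.05), with Gcm1, Peg10 and Elf5 at bacterial control level. Their summed signal was 13.59, 13.37 and 12.34 in ambient and 14.55, 14.71 and 14.95 in hypoxia, with Pgf in the same order as this signal over the ambient arrays, while hypoxia replicate 3 had the highest trophoblast signal and the lowest Pgf of its group. The trophoblast count was 7 without hypoxia replicate 1 and 8 without hypoxia replicate 2. Of the 4 trophoblast markers that did not pass, Krt19 lay lower (-0.43) and the others higher. Of 11 measured natural killer cell markers 4 fell and 0 rose (Cst7 at -0.73, Il2rb at -0.60, Nkg7 at -0.46 and Eomes at -0.39, with -0.26 and no call at a second Eomes probe set), with summed signal from 15.73 to 15.90 in ambient and from 15.48 to 15.56 in hypoxia and Gzma at control level. This count of 4 was 1 without ambient replicate 3 or without hypoxia replicate 1. Among the 7 that did not pass, Klrd1 lay higher (0.52), Ncr1 (-0.01) and Ccl5 (-0.06) lay near 0, and the rest lay lower. The natural killer genes Prf1 and Gzmb, which mark the metrial gland, stood at 13.64 and 14.47 in ambient. Of 10 macrophage markers 1, Cd163, fell, with a difference of -1.05 (summed signal 12.37 to 12.56 and 12.22 to 12.42). Of 13 decidual stroma markers 2 rose, Hand2 by 0.64 and Bmp2 by 0.91 (16.22 to 16.32 and 16.34 to 16.52). That count dropped to 1 on leaving out hypoxia replicate 1 or either of ambient replicates 2 and 3, and Bmp2 kept its call only in the fit without ambient replicate 1 among the fits that left out an array. The ambient mean of Bmp2, 5.67, lay under the filter cut of 5.74, so it was kept only through its hypoxia arrays (mean 6.58). Of 10 smooth muscle and pericyte markers limma called 0, although 5 reached an unadjusted p under 0.05, with Mcam (0.41) and Rgs5 (0.41) nearest to a call and 3 called without hypoxia replicate 3 (14.76 to 15.09 and 14.78 to 15.19). Of 6 lymphatic markers 2 rose, Mmrn1 by 0.89 and Sox18 by 0.48, while Lyve1 (-0.20) and Pdpn (-0.17) did not pass and Prox1 lay below the filter (10.96 to 11.21 and 11.02 to 11.36). The lymphatic count was 0 without ambient replicate 3 and 1 without any other single array, and Sox18 lost its call whichever array was left out. Sox18 is also counted among the endothelial markers above. RNA integrity was read from the array's actin controls: the log2 level at the 3′ end less that at the 5′ end was 0.53, 0.54 and 0.41 in ambient and 0.58, 0.77 and 0.66 in hypoxia, highest on the array with the highest Vegfb (exact permutation p = 0.1). For the GAPDH controls it was -0.05, -0.01 and -0.05 in ambient and -0.04, 0.06 and -0.01 in hypoxia, with overlapping groups (exact permutation p = 0.2). The part of these markers and of RNA integrity in the differences of Vegfb, Pgf, Vegfc and Nrp2 was not tested.

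The genes around the family were counted from lists of known roles. Over all tested probe sets 4.02% were higher and 1.97% lower, and each list count from here on is to be read beside these shares. No list was tested against them, and in short lists 1 or 2 calls say little about the list. Of 33 measured relays below the receptors, 2 rose and 3 fell, with a median of -0.06. Shb, an adaptor of Kdr, rose by 0.48 and Nos3, endothelial nitric oxide synthase, by 0.66, while the kinases Prkca and Pik3cd fell, with differences of -0.51 and -0.46 (a second Pik3cd probe set, at -0.16, did not pass). Nos3, kept by the filter only through its hypoxia arrays, is also counted among the endothelial markers. In fits that left out 1 array, Nos3, Prkca and Pik3cd each lost their call in 5 and Shb in 2. Of 16 measured genes known to be induced by VEGF in endothelium, 1 rose and 3 fell (median 0.02). The rise was that of Angpt2, which loosens vessel walls, by 1.79, and the falls were those of tissue factor F3 (-1.08), Vcam1 (-1.23) and the immediate early gene Egr1 (-0.63). As calls over the whole array fell with 1 array left out, so did these counts: without ambient replicate 2 or 3 the relays had 0 higher and 0 lower, and without ambient replicate 3 the VEGF-induced genes had 1 higher and 1 lower.

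Partners that act at the receptors moved in both directions. Of 17 measured partners and brakes, 2 rose, the phosphatase Ptprb (0.37 and no call at its second probe set) and the proteoglycan Gpc1 by 0.58, and 2 fell, the proteoglycan Sdc4 (-0.43) and the signal inhibitor Spry2 (-0.41). Ptprb is also counted among the endothelial markers. Of 10 measured semaphorins and plexins, which use the neuropilins, 2 rose and 0 fell (median 0.20). They were Sema3b by 0.72 and Sema3f, a ligand of Nrp2, by 0.52, with 0.23 and no call at a second Sema3f probe set. Of 12 measured genes that release, mature or store VEGF ligands, 2 rose and 0 fell (median 0.17), the protease Htra1 by 2.26, from 11.29 ± 0.36 to 13.55 ± 0.35, and Plat by 0.35. Of 7 measured relatives from the PDGF family, 1 rose, the receptor kinase Kit, by 1.43, a call that needed hypoxia replicate 1 and also ambient replicates 2 and 3. Without ambient replicate 3, 1 partner was higher and 0 lower, and 1 semaphorin and 1 processing gene were higher.

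Among regulators of Vegfa 0 of 11 measured rose and 1 fell (Egr1, not past the threshold without ambient replicate 3). Egr1 is also counted among the VEGF-induced genes. RNA of Hif1a and Epas1, the oxygen-regulated HIF subunits, differed by 0.06 and 0.05, and a second kept Epas1 probe set disagreed in sign or in call. HIF protein was not measured. Of 19 measured HIF target genes other than Vegfa 3 rose and 0 fell, with a median of 0.03. They were P4ha1 by 0.45 and P4ha2 by 0.42 (0.07 and no call at a second P4ha2 probe set), which hydroxylate collagen, and Bnip3 by 0.35, a mitophagy receptor. This count was 0 without ambient replicate 3 and 1 without hypoxia replicate 2. Vegfa, at -0.02, thus lay beside the median of those targets, and the other 16 did not pass. Those 16 ran from -0.68 (Ankrd37) to 0.24 (Pfkfb4). The drop of Ankrd37 was the largest difference in the list, with groups that did not overlap (limma adjusted p = 0.0835).

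**Figure D5:**
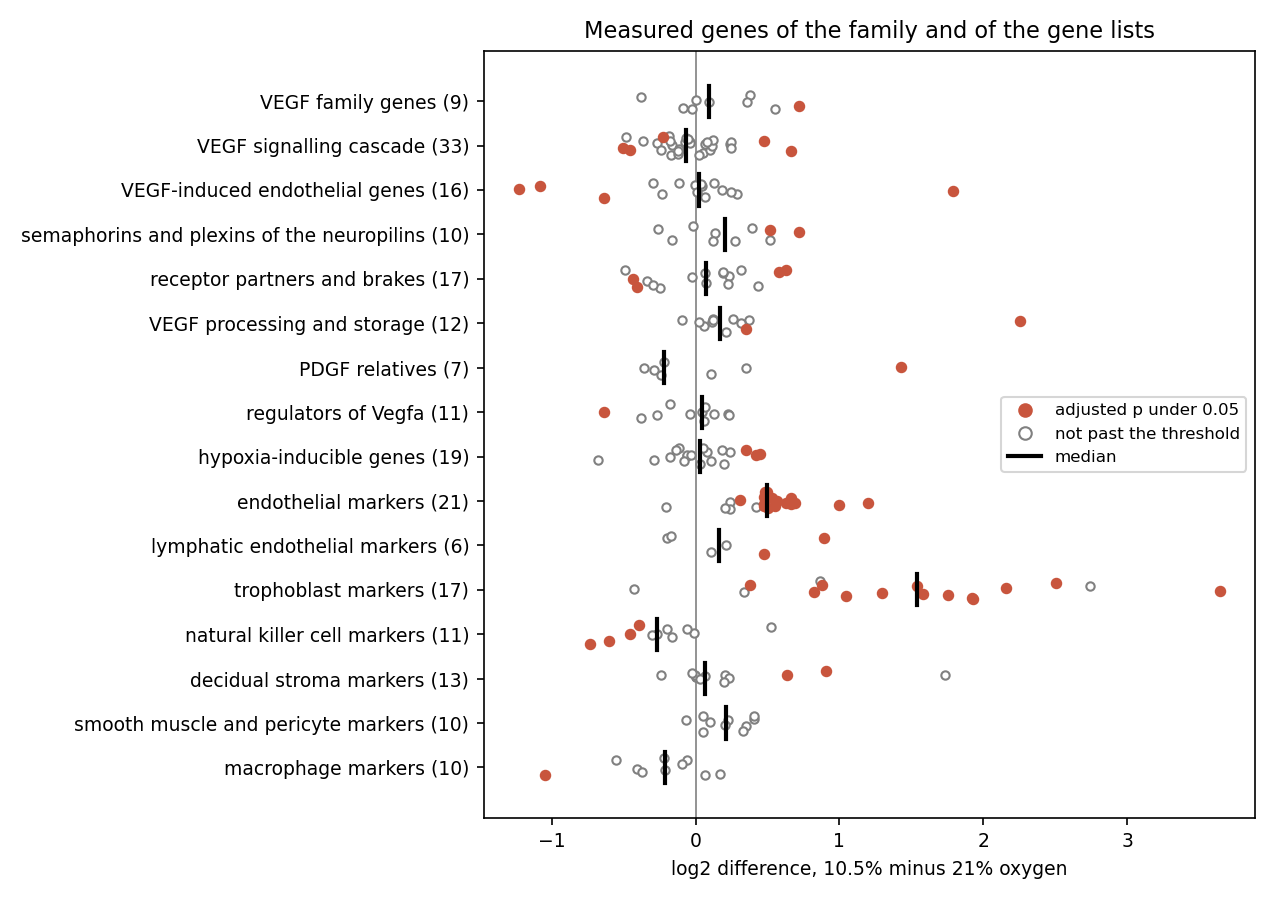
Log2 difference, hypoxia minus ambient, for every measured gene of the VEGF family (top row) and of the 15 gene lists. Filled red points passed an adjusted p of 0.05, open points did not, black bars are medians, and numbers in brackets count measured genes. The family spans -0.38 to 0.72 with 1 filled point, while the endothelial and trophoblast rows lie mostly to the right of 0.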

How the data were processed

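The deposited table gives 1 value per probe set and array on a log2 scale, read from the values, which run from 2.98 to 14.9. MAS5 and Affymetrix Expression Console are named in the submitters' processing notes, with no role, and the authors' background correction, summarization and scaling are, for this table, not stated by any source used here. Array medians lay between 6.44 and 6.47, so the deposited log2 values were used unchanged. Summaries compress low signals, and a shared scale hides a shift of most genes.

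After 57 control probe sets and the 40% lowest means (under 5.74) were left out, 18625 of 31042 probe sets were fitted in R 4.3.3 with limma 3.58.1 (lmFit, eBayes with a mean-variance trend, group as only term, two-sided, Benjamini-Hochberg). The script was tested on simulated data. Exact permutation tests used all splits of the 6 arrays (Python 3.11.15). A gene is represented by its brightest kept probe set. The 27 probe sets for Bacillus transcripts set the background, with a highest value of 5.0. Precision is limited by the number of arrays. Correlations between arrays were 0.989 to 0.993 within and 0.974 to 0.983 between groups. Annotation gave 1 symbol for 20826 probe sets, several for 436 and none for 9780, and 20758 matched the RefSeq table of GRCr8 by gene identifier.

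Named from the lists were up to 4 members past the threshold by smallest p, or 2 where none passed; Prf1, Gzmb, Hif1a, Epas1, Gcm1, Peg10, Elf5, Gzma and Prox1 were singled out later. The set of receptors against endothelial markers was added after the data were seen. Members and lists were chosen with earlier results of these data known. Alternatives covered normalization, filter, variance model, array weights, replicate block, averaging of probe sets, an offset of 64 and each array left out.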

Additional observations from a re-analysis of the deposited data

How the results depend on the processing

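The count of 1 higher member, Vegfb, was 0 with quantile normalization, with no variance trend and with probe sets of a gene averaged, and ranged from 0 to 2 with 1 array left out (2 without hypoxia replicate 3, with Pgf added). It stayed at 1 with median centring, an offset of 64, array weights, a robust trend, the 60% filter and no filter, and no member was called lower under any of the 16 alternatives by limma. With the replicate block the count was 2 (Vegfb and Pgf). The numbers are not shown to pair the arrays, since deviations of same-numbered arrays correlated at 0.012, 0.071 and 0.070 and not every array correlated best with its own number. Signs turned for Vegfa (2 of 16 alternatives), Vegfd (4) and Nrp1 (1), none of them called. The lowest and highest differences with 1 array left out were 0.54 and 0.85 for Vegfb, 0.40 and 0.83 for Pgf, 0.28 and 0.47 for Vegfc, 0.24 and 0.47 for Flt1 and -0.47 and -0.27 for Nrp2. Of the 36 called genes named from the lists, 14 kept their call whichever 1 array was left out, and 22 lost it without at least 1: 10 without ambient replicate 1, 14 without ambient replicate 2, 21 without ambient replicate 3, 13 without hypoxia replicate 1, 11 without hypoxia replicate 2 and 4 without hypoxia replicate 3. The cause was not tested. Flt4 and the second probe sets of Kdr and Nrp2 lie near background, which limits what can be seen of them.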

Other observations

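The genes whose levels over the 6 arrays ran closest to 4 members were taken from 14370 named probe sets outside the family, as a description with no test. Closest to Vegfa were Depdc1 and Luc7l3 (Pearson r = 0.993 each over 6 arrays) and Abi1 (0.982), and none of these differed between the groups by more than 0.07. Closest to Pgf were Bsg (0.992), Map4k4 (0.990) and Fkbp7 (0.989). Closest to Flt1 were Fahd1 (0.992), Spast (0.985) and Coq10b (0.985), and closest to Kdr were Rce1 (0.991), Ptpn14 (0.989) and Map2k3 (0.988). With 6 arrays and this many candidates the order carries no test.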
